A study of Xenopus laevis with 12 samples.

Results

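Sox3 binding in neural plate border cells was described from the peaks called by ChIP-seq in induced explants of Xenopus laevis at stage 11.5, a mid-gastrula stage. All 5300 peaks deposited for this stage were taken, out of 129376 peaks in the lists of both stages of the series. The 3 Sox3 libraries came from wild-type animal pole explants that received Sox3, Wnt8a and Chordin mRNA, and the 3 control libraries from wild-type explants that received Wnt8a and Chordin mRNA without Sox3. Both groups were therefore induced, and they differed in the added Sox3. The Sox3 carried a Myc tag and was precipitated through it, so the peaks show where the injected protein was found and not the endogenous one. The study reports levels of the tagged protein close to those of endogenous Sox3. Explants were pooled for each library. The stage has 1 list, so there is no value per replicate and no test is given. The study's methods describe calling Sox3 libraries against control libraries, but the list itself does not name the libraries that entered it. How deeply the libraries were sequenced is unknown.

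Sox3 belongs to the SoxB1 transcription factors, which bind DNA through an HMG box and usually act with a partner factor such as a POU protein. These factors maintain pluripotent and neural progenitor cells. The neural plate border is the strip of ectoderm between the neural plate and the future epidermis, and it gives rise to neural crest and placodes. Wnt8a activates Wnt signaling and Chordin blocks BMP signaling, and together they turn pluripotent animal pole cells toward this state. Xenopus laevis is an allotetraploid, and its chromosomes come in long (L) and short (S) copies inherited from different ancestral species.

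Each peak was listed with its position on the 9.2 genome, a score, a feature class and a distance to the transcription start site (TSS) nearest to it, which is named by an internal transcript number. None of the 4639 transcript numbers in the list matched the gene table used here (0 matches), so loci are given by position and number, and the marker genes of the border were not examined here. The score is a whole number from the peak caller with a maximum of 1000. The area of a peak is the product of score and width over 1000. For a peak at the maximum score it is a lower bound. Peaks entered the list only with an area of about 20 or more. Intervals are 95% Wilson intervals for shares and exact Poisson intervals for numbers per Mb. Intervals of medians come from binomial ranks. For a ratio of medians, the interval of the first median is divided by the second median. The error of the second is thus not covered. All these intervals cover the error of counting alone, because peaks are no replicates of a condition and close peaks are not independent.

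Most Sox3 peaks lay on placed sequence. The 18 assembled chromosomes held 4337 peaks (81.8%, interval 80.8 to 82.8%), which covered 783234 bp. The other 963 peaks covered 177471 bp on 622 scaffolds, which are sequences not joined to a chromosome. How much of the assembly lies on scaffolds was not examined, so these shares do not give densities. Chromosomal and scaffold peaks differed in score and area. Chromosomal peaks had a median score of 362 and a median area of 46.1, with quartiles of 28.4 and 91.8. Scaffold peaks had a median score of 902 and a median area of 83.0, with quartiles of 38.2 and 170 in area. Their widths were closer, with medians of 137 bp on chromosomes and 125 bp on scaffolds. The maximum score was reached by 48.1% of scaffold peaks (interval 44.9 to 51.2%) and by 13.7% of chromosomal peaks (12.7 to 14.7%). The ratio of the median areas, scaffold over chromosome, was 1.80 for the whole list. It was 1.00 when peaks at the maximum score were left out. Chromosomes and scaffolds are kept apart in what follows.

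On the assembled chromosomes, every L chromosome held more Sox3 peaks than its S partner, in 9 of 9 pairs. The L chromosomes held 2501 peaks and the S chromosomes 1836 (42.3% of the total, interval 40.9 to 43.8%). The S chromosomes are also shorter. With the last peak end in either stage's list taken as the length, they made up 45.4% of the chromosomal sequence. Per Mb, there were 1.83 peaks on L chromosomes (Poisson interval 1.76 to 1.90) and 1.61 on S chromosomes (1.54 to 1.69), and these intervals did not overlap. With a minimum area of 50 the share of peaks on S chromosomes was 43.8% (41.7 to 46.0%) and with 100 it was 44.1% (41.0 to 47.2%), and both intervals held the 45.4% of the length.

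The difference between the copies was uneven among the pairs. Chromosome 8L had the highest density of all, with 291 peaks or 2.42 per Mb (interval 2.15 to 2.72), and 8S had 158 peaks or 1.60 per Mb (1.36 to 1.87). The density ratio of this pair, L over S, was 1.52, while the ratio of the lengths was 1.21. Chromosomes 3L and 3S followed, with 2.08 (1.85 to 2.33) and 1.58 (1.36 to 1.82) peaks per Mb, and their intervals did not overlap. Chromosome 6S had the lowest density of the 18, at 1.15 (0.975 to 1.35), and 6L had 1.49 (1.30 to 1.70), with overlapping intervals. Pairs 2 and 7 had nearly equal densities, with ratios of 1.01 and 1.00. Pair 5 went the other way, with 1.53 peaks per Mb on 5L (1.35 to 1.74) and 1.67 on 5S (1.46 to 1.90), and the intervals overlapped. The longest chromosome, 1L, held the most peaks (400) at 1.82 per Mb.

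**Figure D1:**
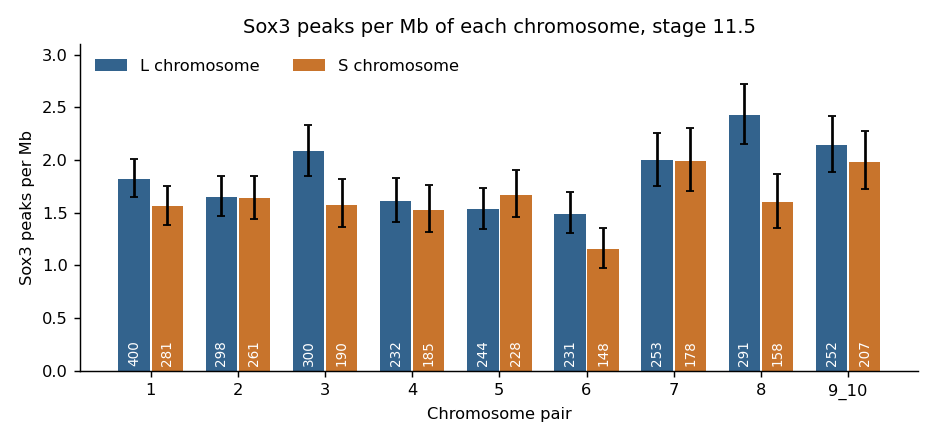
Sox3 peaks per Mb (y axis) for each pair of chromosomes (x axis), with L copies in blue and S copies in orange; error bars are 95% Poisson intervals and the white numbers are the peaks counted. 8L, at 2.42 peaks per Mb, is the highest and 6S, at 1.15, the lowest; in pair 5 the S copy is the denser.

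Peaks on the L and S copies were alike in width but not in position relative to genes. Median widths were 137 and 138 bp, and median areas were 44.1 on L and 48.1 on S chromosomes. Introns held 35.2% of the peaks on L chromosomes and 30.7% of those on S chromosomes. Intergenic sequence held 41.5% and 47.2%. Promoters held nearly the same share of both, 12.6% and 12.9%. How much of the L and S sequence is intronic or intergenic was not examined. By chromosome, the share in introns ranged from 23.7% on 5S to 38.9% on 3S, and the share at promoters from 6.18% on 7S to 18.0% on 5S. Peaks on 9_10L and 9_10S had the largest median areas of any chromosome (58.9 and 57.0). These chromosomes also had the largest shares at the maximum score (17.9 and 21.3%) and the largest shares of peaks with another peak within 1 kb (19.4 and 19.8%). Clusters add to these values. Of the 207 peaks on 9_10S, 14 were nearest to rna62570, 13 of them at the maximum, and 7 to rna60994, 6 of them at the maximum. The shares without such clusters were not computed.

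By genomic feature, 1905 chromosomal peaks were intergenic (43.9%, interval 42.5 to 45.4%) and 1444 lay in introns (33.3%, 31.9 to 34.7%). Promoters held 551 peaks (12.7%, 11.7 to 13.7%), exons 249 (5.74%, 5.09 to 6.47%) and transcription termination sites (TTS) 188 (4.33%, 3.77 to 4.98%). On scaffolds the largest class was sequence with no annotated transcript at all, and 527 of the 963 peaks (54.7%, 51.6 to 57.8%) lay on 477 such scaffolds. The remaining 436 scaffold peaks comprised 189 in intergenic sequence, 93 in introns, 79 at promoters, 41 at TTS and 34 in exons.

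Widths hardly varied with the feature. Chromosomal peaks had median widths of 132 bp at promoters, 126 bp in exons, 142 bp in introns, 141.5 bp at TTS and 135 bp in intergenic sequence. The quartiles were also close, with lower quartiles of 87 to 92 bp and upper quartiles of 219 to 230 bp. Areas varied more. Promoter peaks were the smallest, with a median area of 38.5 (quartiles 27.0 and 70.1), followed by exon peaks at 40.2 and intron peaks at 45.3. TTS peaks had a median area of 49.8 and intergenic peaks of 50.4 (quartiles 29.4 and 98.1). The median area of promoter peaks was thus 0.765 of that of intergenic peaks. Below the maximum score this ratio was 0.928 (0.884 to 0.994). With a minimum area of 100 it was 1.03 (0.876 to 1.21), an interval that held 1. Only 29 promoter peaks were at the maximum score (5.26%, interval 3.69 to 7.46%), compared with 372 intergenic peaks (19.5%, 17.8 to 21.4%). Introns had 9.07% of their peaks there, exons 10.4% and TTS 18.6% (13.7 to 24.8%).

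On scaffolds every feature had a larger median area than on chromosomes. The smallest was that of exon peaks, 49.0 against 40.2 on chromosomes, with only 34 scaffold peaks. TTS peaks had a median area of 86.0 and promoter peaks of 58.9. Peaks on scaffolds without an annotated transcript had the largest median area, 95 (quartiles 44.04 and 197), at a median width of 122 bp. Of these peaks 58.6% (54.4 to 62.8%) were at the maximum score. Of all scaffold peaks, 182 (18.9%, 16.6 to 21.5%) started within 100 bp of the start of their scaffold.

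**Figure D2:**
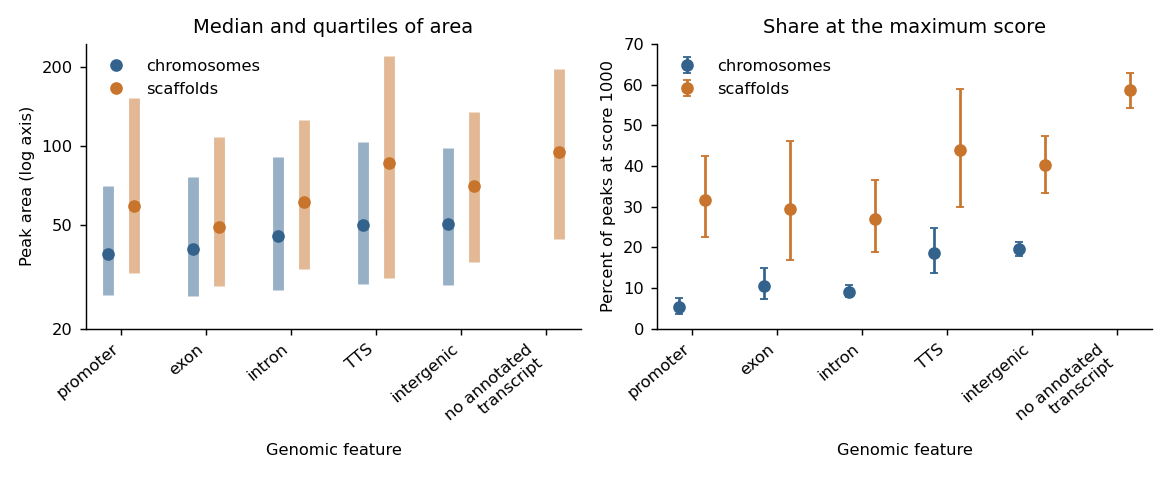
Left, area of Sox3 peaks (log axis) by genomic feature, with points at the median and bars from the lower to the upper quartile; right, percent of peaks at the maximum score with 95% Wilson intervals. Blue is assembled chromosomes and orange is scaffolds; scaffolds lie above chromosomes in each feature, and promoters on chromosomes have the lowest share at the maximum, 5.26%.

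Width and score were not independent in the list. Over the 4337 chromosomal peaks Spearman's rho was -0.20, and over the 3744 peaks below the maximum score it was -0.30. The minimum area keeps out peaks that are both narrow and low, which by itself can give a negative value. Widths ran from 32 to 6267 bp and scores from 55 to 1000. Many peaks lay close to the calling limit: 841 of 5300 (15.9%, 14.9 to 16.9%) had an area below 25, and 25.9% reached 100. The 434 chromosomal peaks with the largest areas (10% of them) held 41.1% of the summed area of 364566.

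The 10 chromosomal peaks with the largest areas came from all feature classes found on chromosomes. Since nearly all of them were at the maximum score, their order follows their width. The largest of all was intergenic, on chromosome 3L at 143064125 to 143070391, 10510 bp upstream of the TSS of rna83851. It was 6267 bp wide at the maximum score. The next was on 8L at 99756635 to 99760954, 4320 bp wide, 7381 bp upstream of rna69466. These peaks were far wider than the rest: 13 chromosomal and 7 scaffold peaks reached 1000 bp. The third in area, 1997 bp wide, lay in intron 7 of 7 of rna86352 on 2S (157247160 to 157249156). A promoter peak came next, on 2S at 152381255 to 152382929, centred 192 bp upstream of the TSS of rna85348. Of the 10 largest chromosomal peaks, 6 were intergenic and 1 each lay in an intron, at a promoter, in an exon and at a TTS. Intergenic sequence held 43.9% of all chromosomal peaks. The exon peak was in exon 2 of 2 of rna75726 on 4S (49401890 to 49403146). In this group only the peak on 3S at 12588560 to 12590242 was below the maximum, with a score of 701 and a width of 1683 bp, 1659 bp upstream of rna26727. On scaffolds the largest peaks were on Scaffold20 (6092291 to 6094403, area 2113) and Scaffold78 (182533 to 183961, area 1429), both intergenic. The next was at the promoter of rna95052 on Scaffold20 (6947 to 8201, area 1255).

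Sox3 peaks were dense around start sites but most lay well away from them. The median distance from the centre of a chromosomal peak to the nearest TSS was 8174 bp, with quartiles of 1867 and 24624 bp. Within 1 kb of a TSS lay 830 peaks (19.1%, 18.0 to 20.3%), within 5 kb 1707 (39.4%, 37.9 to 40.8%) and within 10 kb 2368 (54.6%, 53.1 to 56.1%). Beyond 50 kb lay 492 peaks. The farthest, a 121 bp peak at the maximum score on 7S (68822685 to 68822805), was 502719 bp from the TSS of rna45563. The density per kb of distance fell steeply. Less than 100 bp from a TSS the list held 234 peaks, with 117 upstream and 117 downstream, and 3 more were centred at exactly 100 bp (2 upstream and 1 downstream). In the bins next to them there were 74 peaks from 100 to 200 bp upstream and 60 from 100 to 200 bp downstream. From 1000 to 1100 bp away there were 15 and 17. As a mean of the upstream and downstream sides, there were 1170 peaks per kb of distance within 100 bp. This mean was 238 from 500 to 1000 bp and 97.3 from 2 to 5 kb. The centre of a peak was used for these distances, and the number of TSSs available at each distance was not taken into account.

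The sides of the TSS were nearly balanced. Of the peaks within 5 kb, 817 were upstream (47.9%, 45.5 to 50.2%), and over all chromosomal peaks 48.1% were (46.6 to 49.5%). The balance varied with distance. Upstream peaks made up 53.8% from 100 to 250 bp (46.6 to 60.9%) but 42.0% from 250 to 500 bp (34.9 to 49.4%) and 41.2% from 500 to 1000 bp (35.1 to 47.5%). From 10 to 50 kb they were 46.2% (43.6 to 48.7%), and from 50 to 100 kb 57.3% (52.0 to 62.5%). In these classes from 250 to 1000 bp, and in that from 10 to 50 kb, the whole interval lay below an equal split. From 50 to 100 kb it lay above. No test was made, the number of classes was not corrected for, and close peaks in a class are not independent.

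**Figure D3:**
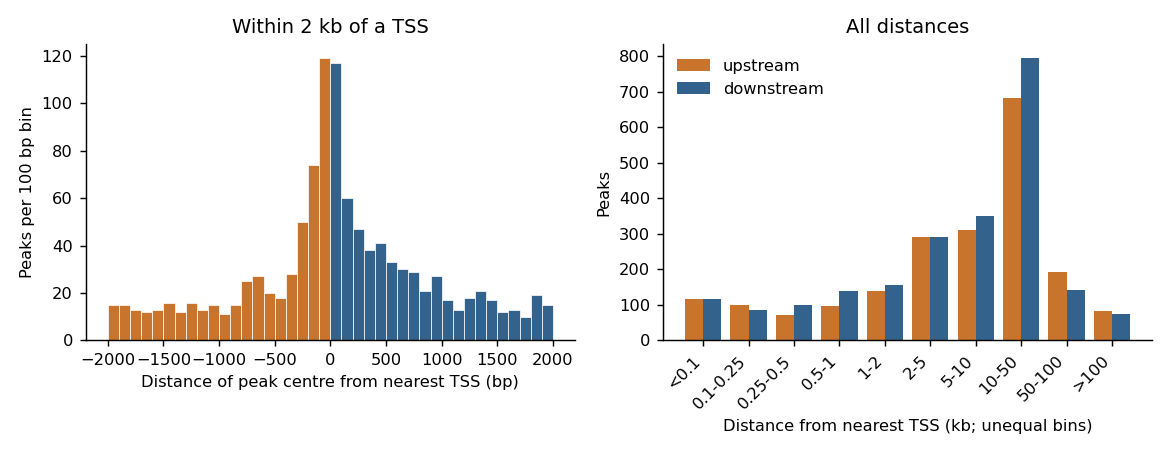
Left, chromosomal peaks per 100 bp bin within 2 kb of the nearest TSS, upstream in orange and downstream in blue; right, peaks on each side by distance in kb, in bins of unequal size. The 100 bp bins on both sides of the TSS hold 119 and 117 peaks (2 of the former are centred exactly 100 bp upstream), and from 500 to 1000 bp the downstream side holds 140 peaks against 98 upstream.

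Median area and the share at the maximum score were lowest within 250 bp of the TSS, and the rise farther out was not steady. Chromosomal peaks within 100 bp had a median area of 38.2 and were at the maximum score in 2.99% of cases. For those from 100 to 250 bp the values were 37.1 and 5.98%. From 1 to 2 kb the values were 43.2 and 14.3%, and from 50 to 100 kb they were 51.3 and 21.8%. Beyond 100 kb, where 157 peaks lay, they were lower again, at 41.0 and 17.2%. The median width stayed between 127 and 143.5 bp in every distance class. Among promoter peaks, 237 of 551 were centred at most 100 bp from the TSS (43.0%, the 3 peaks at exactly 100 bp included) and 70.2% were upstream. The promoter class of the annotation reaches farther upstream than downstream, so this side is partly set by the class. Of the intergenic peaks 63.3% (61.1 to 65.4%) were upstream of the nearest TSS, 1240 (65.1%) were more than 10 kb away and 375 (19.7%) more than 50 kb. Peaks downstream of a TSS and still within the transcript are counted as exon, intron or TTS peaks, which lowers the downstream share of this class. The 436 scaffold peaks with a TSS were closer to it, with a median of 3770 bp, and 55.05% (50.4 to 59.7%) lay within 5 kb. These distances cannot exceed the length of the scaffold, and the 527 peaks without an annotated transcript are left out. The values are therefore not directly comparable with those of chromosomes.

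Within introns, Sox3 peaks were most frequent in intron 1. Of the 1444 chromosomal intron peaks, 502 lay in intron 1 (34.8%, 32.4 to 37.3%), 285 in intron 2 (19.7%), 158 in intron 3 (10.9%), 105 in intron 4 and 64 in intron 5. The other 330 lay in later introns, up to intron 115. Transcripts with few introns add to this share, and 84 of the peaks lay in transcripts with only 1 intron, although the median was 11. In transcripts with at least 5 introns, 291 of 1122 peaks were in intron 1 (25.9%, 23.5 to 28.6%). An equal share for each intron would give 14.6% in transcripts with 5 to 9 introns, where 28.4% were found (23.9 to 33.3%). For transcripts with 10 to 19 introns the same values were 7.40 and 26.2% (22.4 to 30.4%), and for those with 20 or more 3.69 and 22.9% (18.6 to 27.8%). The list holds no intron lengths, so the share per base of intron was not computed. The last intron held 12.7% of the intron peaks, including those in transcripts with a single intron. In transcripts with 10 to 19 introns it held 7 of 454 peaks (1.54%), below the equal share of 7.40%. In those with 20 or more it held 10 of 319 (3.13%), close to the equal share of 3.69%.

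Peak area followed no steady order by intron number. The median area was 47.2 in intron 1, 44.3 in intron 2, 47.5 in intron 3, 38.8 in intron 4, 38.6 in intron 5 and 44.9 beyond. The share at the maximum score lay between 7.81 and 11.4%. Distance to the nearest TSS grew from a median of 5419.5 bp in intron 1 to 17553.5 bp in intron 6 and later. Of the intron 1 peaks, 48.0% (43.7 to 52.4%) lay within 5 kb of a TSS and 11.2% within 1 kb. The nearest TSS was often not that of the transcript around the peak. It carried the same number for 306 of the 502 intron 1 peaks (61.0%) and for 74 of the 330 peaks in intron 6 and later (22.4%). Over all intron peaks this was 713 of 1444 (49.4%, 46.8 to 52.0%). Isoforms of a gene and neighbouring genes cannot be told apart by these numbers. Peaks upstream of the nearest TSS made up 20.5% in intron 1 and 50.6% in intron 6 and later.

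In exons, 125 of the 249 chromosomal peaks lay in exon 1 (50.2%, 44.0 to 56.4%) and 44 in exon 2 (17.7%). The largest exon number was 34. Exon 1 peaks were close to their TSS, with a median distance of 451 bp, and the nearest TSS was that of the same transcript for 113 of them (90.4%). Every chromosomal peak centred at most 100 bp from a TSS was in the promoter class. The exon and intron classes therefore hold no peak that close to a TSS, which affects this distance and the shares in exon 1 and intron 1. In transcripts with at least 5 exons the share in exon 1 was 38.2% (29.6 to 47.5%). The last exon of transcripts with more than a single exon held 71 peaks (28.5%, 23.3 to 34.4%), and 31 peaks (12.4%) lay in transcripts with 1 exon. Exon 2 peaks were larger than exon 1 peaks, with median areas of 51.2 and 36.8 and with 18.2 and 5.60% at the maximum score, although only 44 exon 2 peaks were available. There was no steady order by exon number. The median area was 86.0 in exon 3 (15 peaks), 57.8 in exon 4 (12 peaks), 38.2 in exon 5 (5 peaks) and 31.1 beyond (48 peaks). On scaffolds, 39 of 93 intron peaks were in intron 1 (41.9%, 32.4 to 52.1%) and 15 of 34 exon peaks in exon 1 (44.1%, 28.9 to 60.5%).

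**Figure D4:**
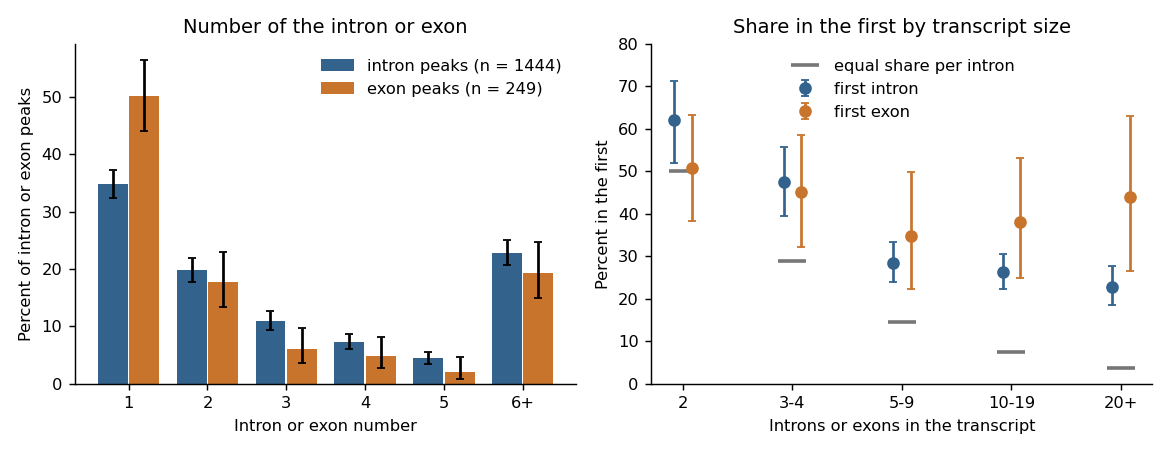
Left, percent of chromosomal intron peaks (blue) and exon peaks (orange) by the number of the intron or exon; right, percent in intron 1 or exon 1 by how many introns or exons the transcript has, with grey dashes for an equal share per intron. Error bars are 95% Wilson intervals; the share in intron 1 stays at 22.9% in transcripts with 20 or more introns, where an equal share would be 3.69%.

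A minority of Sox3 peaks lay in groups. Neighbouring peaks on a chromosome were a median of 247075 bp apart, with quartiles of 32154.5 and 794522 bp, but 246 of the 4319 gaps (5.70%) were of 500 bp or less. No gap was under 101 bp, and whether the peak caller sets this limit was not tested. Close peaks may be parts of 1 wider enriched region. A peak within 1 kb was found for 577 chromosomal peaks (13.3%, 12.3 to 14.3%) and for 175 scaffold peaks (18.2%, 15.9 to 20.7%). By feature, this share was 20.2% at TTS, 14.8% in intergenic sequence, 13.4% at promoters, 12.0% in exons and 10.6% in introns. When peaks no more than 5 kb apart were joined, the chromosomal peaks formed 3767 loci. A single peak made up 3360 of them, a pair 308, and 99 loci held 3 or more peaks. These 99 loci held 361 peaks (8.32%) and had a median span of 3529 bp. On scaffolds 32 of 823 loci held 3 or more peaks.

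Peaks in such groups had larger areas and higher scores than lone peaks. On chromosomes the median area was 42.5 for the 3360 lone peaks, 51.0 for the 616 peaks in pairs and 87.0 for the 361 peaks in loci of 3 or more. The median widths were 132, 160 and 147 bp and the median scores 350, 381 and 617, so pairs differed from lone peaks more in width and larger loci more in score. The maximum score was reached by 10.8% of lone peaks (9.77 to 11.9%), by 14.8% of peaks in pairs (12.2 to 17.8%) and by 38.8% of peaks in loci of 3 or more (33.9 to 43.9%). In 15 of the 99 loci every peak was at the maximum. Intergenic sequence held 54.3% of the peaks in loci of 3 or more and 42.9% of lone peaks, and introns held 22.7 and 34.5%. Promoters held 12.7 and 12.9%. On scaffolds the maximum score was reached by 43.5% of lone peaks and by 71.3% of peaks in loci of 3 or more (62.5 to 78.8%).

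The locus with the most peaks lay on chromosome 9_10S at 44283586 to 44294345, with 14 peaks in 10760 bp. Its peaks fell into a group of 8 within the first part, a single narrow peak of 64 bp with a score of 580, and a group of 5 at the far end. The other 13 peaks were all at the maximum score, with widths from 65 to 465 bp and a median gap over the locus of 280 bp. All were intergenic. The next locus, on 1L at 124786578 to 124799346, had 10 peaks in 12769 bp and ran through a transcript. It started in intron 2 of 4 of rna94917, with 3 peaks in that intron, 2 in intron 3 and 1 in intron 4. A peak in exon 5 of 5 and a peak at the TTS followed, and 2 intergenic peaks lay beyond. The widest of these peaks, 304 bp, lay in intron 3, and 7 of the 10 were at the maximum.

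The third locus, on 5S at 59107011 to 59120209, had the largest summed area of the named loci, 4700, from 7 peaks that were all at the maximum score. Its peaks were wide, from 229 to 1107 bp, and covered 4700 of 13199 bp. A 906 bp peak lay at the promoter of rna87901, centred 189 bp upstream of its TSS, and the 1107 bp peak lay at the TTS of the same transcript, 383 bp downstream of the TSS of rna83626. A further peak lay at the promoter of rna83626 (337 bp wide, 708 bp upstream). The last pair, 770 and 912 bp wide, was 6234 and 4908 bp upstream of rna77004.

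Chromosome 3L held a pair of these loci 32096 bp apart. In the one at 4471265 to 4473865, 6 peaks at the maximum score lay within 2601 bp, beginning at the promoter of rna73142 and ending in intron 2 of 2 of rna94048. In the other, at 4434491 to 4439168, 5 intergenic peaks lay 25309 to 29285 bp upstream of rna64812 and included the 1251 bp peak that was among the largest in the list. Chromosome 6S held another pair, 8682 bp apart, both nearest to rna72330. The locus at 83633584 to 83638274 had 6 peaks, of which 2 were at the maximum, and that at 83646957 to 83650684 had 5, of which 3 were. The second contained a peak of 801 bp, while the widest of the first was 292 bp. Together these 11 peaks lay 3568 to 20556 bp downstream of the TSS, in sequence annotated as intergenic.

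The remaining chromosomal loci held 5 peaks each. On 6L (52643203 to 52651457) they lay around rna76069, from 4519 bp upstream of its TSS to 3600 bp downstream. The widest, 707 bp in intron 3 of 6, had a score of 477. On 9_10L (77127802 to 77131691) all 5 were at the maximum score, intergenic and 69682 to 73395 bp upstream of rna70953. On 3S (119814214 to 119816504) all lay at promoters or TTS of rna84643 and rna84144, in a span of 2291 bp. They were within 515 bp of the nearest TSS, that of rna84643, rna84901 or rna84144. On scaffolds the 3 loci with the most peaks were those of Scaffold847 (6 peaks in 3814 bp, all at the maximum, no annotated transcript), Scaffold568 (6 peaks in 3156 bp, 5 at the maximum) and Scaffold120 (5 peaks in 4465 bp, 4 at the maximum). The peaks of Scaffold568 ran from 1797 bp upstream of the TSS of rna93445 through its promoter and intron 1 of 1 to its TTS.

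**Figure D5:**
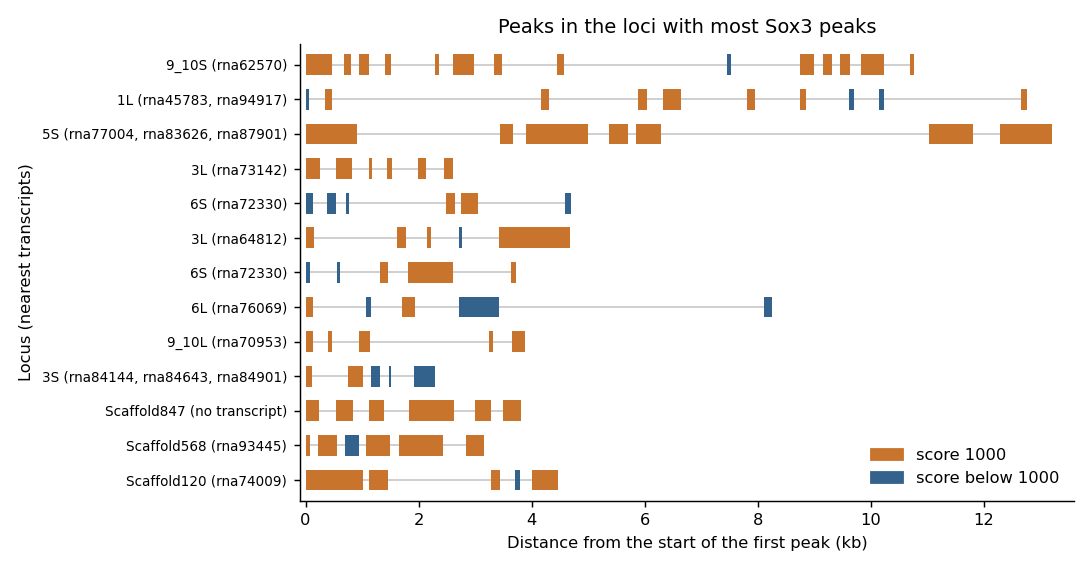
Peaks of the 10 chromosomal and 3 scaffold loci with the most peaks, drawn to scale by distance in kb from the start of the first peak, with the nearest transcripts beside each; orange peaks are at the maximum score of 1000 and blue peaks below it. The locus on 9_10S has 14 peaks in 10760 bp, and that on 5S covers 4700 of 13199 bp.

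By nearest TSS, the chromosomal peaks belonged to 3493 transcripts, of which 2899 had a single peak (83.0%, 81.7 to 84.2%), 451 had 2 and 143 had 3 or more. The 143 transcripts together had 536 peaks. Those peaks were farther from the TSS than the peaks of transcripts with a single peak (median 13737.5 against 7158 bp) and more often intergenic (58.8%, 54.6 to 62.9%, against 40.3%, 38.5 to 42.1%). They were also larger, with median areas of 67.2 and 42.3, and more often at the maximum score (28.4%, 24.7 to 32.3%, against 11.3%, 10.2 to 12.5%). Of the 143 transcripts, 51 had all their peaks upstream of the TSS, 55 had all downstream and 37 had peaks on both sides. A transcript far from its neighbours is nearest to more sequence, and this was not corrected for.

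The 10 transcripts with the most peaks ranged from 7 of 7 peaks at the maximum score (rna73142) to 0 of 7 (rna71477). After rna62570, whose 14 peaks formed the locus on 9_10S, and rna72330 with its 11 peaks on 6S, rna95949 on 5L had 8 peaks over 27738 bp. Of these, 6 lay in intron 4 of 9 and 2 at the promoter, centred 43 bp downstream and 788 bp upstream of the TSS. Only 1 of its peaks, 295 bp wide in intron 4, was at the maximum. The widest, 540 bp, had a score of 307, and a 281 bp peak beside the one at the maximum had a score of 84. The 7 peaks of rna71477 on 9_10L were spread over 88815 bp, with 5 in intron 3 of 11 of another transcript, rna76387, and none was at the maximum. Their scores ran from 150 to 562 at widths of 96 to 591 bp.

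The other 6 of these transcripts had 7 peaks each, mostly at the maximum. On 7S, rna58474 had 5 of 7 at the maximum and the largest summed area of the 10 transcripts, 3109. Of this, peaks of 1106 and 1485 bp lying 14119 and 15517 bp downstream of the TSS made up the greater part. On 9_10S, rna60994 had 6 of 7 at the maximum, all intergenic and 31292 to 55222 bp upstream. On 5S, rna38703 had 5 of 7 at the maximum, all intergenic and 11444 to 24838 bp upstream, with the widest peaks of 378 and 557 bp beside each other. On 8L, rna72312 had 5 of 7 at the maximum, from 1007 to 27801 bp downstream, and the widest of them, 413 bp, lay at its TTS. All 7 peaks of rna73142 on 3L were at the maximum, and 6 of the 7 peaks of rna94917 on 1L were. The forms differed. There was a tight cluster of peaks nearly all at the maximum score (rna62570) and a few wide peaks that held most of the area (rna58474). The peaks of rna71477 were all below the maximum and mostly within an intron.

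Of the 622 scaffolds with a peak, 513 held a single peak and 28 held 5 or more. Scaffold lengths were not taken into account, so these counts do not give a density. Scaffold20 held the most, with 44 peaks between 6947 and 7594949, of which 14 were at the maximum score. Scaffold22 followed with 18 peaks, of which 2 were at the maximum, and Scaffold78 with 13, of which 6 were. Scaffold29 had 12 peaks, 1 of them at the maximum, and Scaffold24 and Scaffold28 had 10 each, of which 2 and 6 were at the maximum.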

How the data were processed

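Sox3 ChIP-seq at stage 11.5 comprised 3 Sox3 and 3 control libraries. Explants were crosslinked for 15 min and chromatin on the beads was tagmented with Tn5 for 40 min. The authors used fastp for trimming and bowtie2 for alignment to genome build 9.2, called peaks with Genrich (Sox3 against control, minimum area 20) and annotated them with HOMER. Tool versions are not given in the sources used here. Picard is named in the submitters' processing notes without its use, so the treatment of duplicate reads is unknown. The deposited score is the peak caller's value relative to the control. The depth is unknown.

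Widths (end minus start plus 1), areas, distances and groups of peaks were computed with pandas 2.3.3 and numpy 2.4.6, intervals with scipy 1.17.1 (under Python 3.11.15), and figures were drawn with matplotlib 3.10.9. The code was tested on simulated data. The stage 9 list gave only chromosome lengths (last peak end) and the number of peaks in the series. Its scores were not used. The named loci, peaks and transcripts are those with the most peaks or largest area (10 on chromosomes and, for loci and peaks, 3 on scaffolds, ties by summed area). The list and its description were chosen with earlier results of these data known. Alternatives covered the minimum area, the maximum score, joined peaks, scaffolds and distance limits. Sequences are not printed, since the genome of this build was not used here.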

Additional observations from a re-analysis of the deposited data

How the results depend on the processing

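Of 61 comparisons of 12 results with an alternative, 35 stayed within the margin of the value reported, 23 moved and 3 changed direction. The margin was the 95% interval, or 1.5 times for a number. A change of direction means only that a ratio of medians crossed 1, whatever its interval. Fewer peaks enter by construction with a higher minimum area, below the maximum score or after joining. The cause of other changes was not tested. The share on assembled chromosomes was 75.8% with a minimum area of 50, 70.7% with 100 and 88.2% below the maximum score. The share on S chromosomes was 43.8% (41.7 to 46.0%) and 44.1% (41.0 to 47.2%) with a minimum area of 50 and 100, and both intervals held the 45.4% of length on S. The share with a neighbour within 1 kb was 12.1% with a minimum area of 50 and 9.32% below the maximum, and became 10.4% for 500 bp and 22.5% for 5 kb. The share in intron 1 moved only in transcripts with at least 5 introns (25.9%). That in exon 1 was 38.1% with a minimum area of 100 and 38.2% in transcripts with at least 5 exons. The median distance to a TSS was 8951 bp with a minimum area of 50. The share upstream within 5 kb stayed within its margin under every alternative run.

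The median area of promoter over intergenic peaks was 0.928 below the maximum. With a minimum area of 100 it was 1.03, with an interval (0.876 to 1.21) that held 1. The same ratio of widths was 0.978 over all chromosomal peaks (0.919 to 1.07), an interval that held 1. It was 1.11 (1.04 to 1.22) with a minimum area of 50 and 1.05 (0.878 to 1.24) with 100. The latter interval also held 1. The ratio of scaffold to chromosomal area was 1.28 with a minimum area of 100 and 1.00 below the maximum. Transcripts with 3 or more peaks numbered 58 and 24 with a minimum area of 50 and 100, and 78 with peaks 1 kb or less apart joined. Loci of 3 or more peaks numbered 48 and 22 with those minimum areas, 58 below the maximum score and 52 with a joining distance of 1 kb. No paired analysis was possible because the stage has 1 list and its columns carry no replicate, and no replicate could be left out.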

Other observations

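Sox3 peaks were not spread evenly along the chromosomes. When each chromosome was divided into 10 equal parts from its first base, the one with the fewest peaks over all 18 chromosomes was the fourth, with 345 peaks (7.95%), and the one with the most was the seventh, with 513 (11.8%). The seventh to the last each held 11.2 to 11.8% of the peaks, and the third to the sixth 7.95 to 9.13%. The longest stretches without a peak were 8.68 Mb on 6S (33188701 to 41873009), 7.04 Mb on 6L (93039857 to 100079024) and 6.49 Mb on 5S (74831856 to 81323908). Of the gaps between neighbouring chromosomal peaks, 859 (19.9%) were longer than 1 Mb. Gene density, assembly gaps and the depth of the control libraries along the chromosomes were not examined.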
